A study of Mus musculus with 2 samples.

Results

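BAF complexes, the mammalian SWI/SNF chromatin remodellers, are encoded by families of paralogous genes, and 10 of these genes were examined here for monomethylation of lysine 4 of histone H3 (H3K4me1). They were chosen by name as subunits of the complexes, with earlier results of these data known. They are 10 of the 21535 protein-coding genes measured. Subunits used in embryonic stem cells were Arid1a, Smarca4, Smarcc1, Smarcd1 and Smarcb1. The genes set against them as alternatives were Arid1b, Arid2, Smarca2 and Smarcc2. Of these, Arid2 belongs to a separate complex (PBAF), and use of the alternatives in these cells was not measured. Brd9, which belongs to the non-canonical complex (ncBAF), was kept apart from both classes. The mark was mapped by chromatin immunoprecipitation and sequencing in E14TG2a.4, an embryonic stem cell line of a male mouse of the 129/Ola strain, in 2 biological replicates that form the only group. The labels give both replicates the same donor, so the spread between them is a spread within 1 cell line. Neither a control nor a further condition was examined, so every comparison is between genes or between replicates, and none was tested because genes are not replicates.

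A BAF complex uses the energy of ATP to slide or evict nucleosomes, and its ATPase is either SMARCA4 (BRG1) or SMARCA2 (BRM). An ARID protein sets the kind of complex, since ARID1A or ARID1B defines canonical BAF and ARID2 defines PBAF, while ncBAF carries BRD9 and no ARID subunit. The form known from mouse embryonic stem cells, esBAF, is built around SMARCA4, ARID1A and SMARCC1 and is needed for self-renewal, and SMARCA2 and SMARCC2 are known as scarce in these cells. H3K4me1 is a mark of enhancers and of the flanks of promoters, and in a peak list it shows where the mark was called, not how much protein a gene makes.

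Coverage is the percent of bases lying in the authors' H3K4me1 peaks, computed within 20 kb of the transcription start site (TSS) in both directions and over the whole gene record. Replicate 1 had 313453 peaks on mm10 and replicate 2 had 325226, and 226060 intervals were kept by the authors as replicated. The lists carry no read counts, so the depth is unknown, and an uncovered base means only that no peak was called there. The median TSS window of all genes was 13.9% covered. As a check of the label, the 8 markers of pluripotent cells had a median of 65.2% with Esrrb lowest at 8.08%, whereas the 8 fibroblast markers had 13.0%, near the level of all genes. Of these, Col3a1, Dcn and Lum were at 0 and Col1a2 was at 4.60%, but Pdgfrb at 39.8%, Thy1 at 30.8%, Col1a1 at 30.2% and Pdgfra at 21.4% were above the all-gene median. Between replicates the difference in TSS-window coverage had an SD of 3.09 percentage points over all genes.

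The starts of the remodeller genes are CpG-rich, and the 300 bases around 3 of them are shown because they carry the same feature at genes whose surrounding mark differed widely. Smarca4 and Smarca2 encode the alternative ATPases, and Brd9 had the lowest TSS-window coverage of the 10 genes. Each runs from 250 bases before to 50 bases after a RefSeq start on GRCm38.p6, 5′ to 3′ on the gene's strand, and capitals mark CG dinucleotides. The windows lie at chr9:21615919-21616218 (+) for Smarca4, chr19:26604910-26605209 (+) for Smarca2 and chr13:73937561-73937860 (+) for Brd9.
Smarca4: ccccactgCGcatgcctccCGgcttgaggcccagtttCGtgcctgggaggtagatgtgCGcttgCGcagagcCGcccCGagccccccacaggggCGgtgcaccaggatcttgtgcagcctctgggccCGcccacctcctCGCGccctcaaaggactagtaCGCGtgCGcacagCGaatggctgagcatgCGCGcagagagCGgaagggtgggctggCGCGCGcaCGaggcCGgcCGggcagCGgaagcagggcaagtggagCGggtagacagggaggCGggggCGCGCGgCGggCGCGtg
Smarca2: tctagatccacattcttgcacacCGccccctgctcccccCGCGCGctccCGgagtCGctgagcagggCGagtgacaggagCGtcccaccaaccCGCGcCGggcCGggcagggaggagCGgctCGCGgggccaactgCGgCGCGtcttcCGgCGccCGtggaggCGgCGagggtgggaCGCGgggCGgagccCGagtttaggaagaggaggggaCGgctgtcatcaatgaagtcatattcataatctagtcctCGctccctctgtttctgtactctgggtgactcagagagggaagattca
Brd9: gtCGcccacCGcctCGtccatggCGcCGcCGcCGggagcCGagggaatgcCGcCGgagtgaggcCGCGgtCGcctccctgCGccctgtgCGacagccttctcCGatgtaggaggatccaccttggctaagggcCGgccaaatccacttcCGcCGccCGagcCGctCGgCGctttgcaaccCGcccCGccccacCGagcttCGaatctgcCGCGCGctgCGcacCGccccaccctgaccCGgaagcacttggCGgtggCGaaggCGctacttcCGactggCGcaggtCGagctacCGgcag
These windows held 33 CG dinucleotides for Smarca4, 29 for Smarca2 and 40 for Brd9, beside a median of 7 over all 32851 promoter windows. None of the 3 windows touched a peak in either replicate. Of the 10 genes, 9 were matched to the RefSeq promoter table, and Arid2 is named only.

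Arid1a has a pair of starts in that table, and both are shown because the widest H3K4me1 domain of the set begins downstream of them. The first lies at chr4:133756720-133757019 (-) and the second, 2784 bp downstream, at chr4:133753936-133754235 (-).
Arid1a, first start: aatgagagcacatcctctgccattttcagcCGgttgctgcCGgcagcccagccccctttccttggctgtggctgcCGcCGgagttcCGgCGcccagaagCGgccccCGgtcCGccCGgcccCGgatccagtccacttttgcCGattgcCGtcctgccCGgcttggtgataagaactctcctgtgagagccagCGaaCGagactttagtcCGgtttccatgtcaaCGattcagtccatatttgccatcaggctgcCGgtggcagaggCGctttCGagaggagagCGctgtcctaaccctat
Arid1a, second start: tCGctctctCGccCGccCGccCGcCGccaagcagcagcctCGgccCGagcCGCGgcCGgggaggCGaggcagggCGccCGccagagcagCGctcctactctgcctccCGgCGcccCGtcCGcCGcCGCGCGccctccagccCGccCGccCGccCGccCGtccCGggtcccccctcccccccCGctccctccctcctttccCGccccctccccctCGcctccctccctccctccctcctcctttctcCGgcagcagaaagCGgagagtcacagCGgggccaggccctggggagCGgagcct
The first Arid1a window held 22 CG dinucleotides at a GC content of 61.3%, and the second held 36 at 79.7%. Over the matched genes, the fewest CG dinucleotides were the 22 of the first Arid1a start and the most were the 48 of Smarcc2, at 81.0% GC. The letters GGGCGG, the core of the GC box, searched on both strands, occurred in windows of all 9 matched genes and in 35.7% of all promoter windows. Among the 7588 windows with at least 22 CG dinucleotides, however, 82.6% held them. No such share was computed for the other strings of letters given next, which are set only beside all windows. Whether the number of CG dinucleotides alone accounts for their presence or absence was therefore not tested. TATAAA, found in 13.6% of all windows, and CCAAT, found in 37.4%, occurred in none of the 9 genes. CCGGAAG was present for Smarcc1, Smarca2 and Brd9, beside 8.86% of all windows.

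All 10 genes had H3K4me1 close to the start and none had it on the start itself. A replicated peak lay within 2 kb of the TSS at 10 of 10 genes, beside 72.8% of all protein-coding genes. A replicated peak covered the TSS base at 0 of the 10 genes, beside 18.9% of all genes. On both sides of a free TSS base, peaks lay within 2 kb at 9 of the 10 genes, beside 43.2% of all genes, and Arid1b was the exception. The 300-base promoter window was free of peaks in both replicates for 10 of the 11 windows in the promoter table that belong to the 9 matched genes. That share was 60.8% over all windows and 69.1% over windows with at least 22 CG dinucleotides. The remaining window was that of Smarcb1, 4.33% of which was covered in replicate 1 and 0 in replicate 2.

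The peak-free stretch around the start of Smarca4, the ATPase gene used in embryonic stem cells, measured 1530 bp in replicate 1 and 2063 bp in replicate 2. It was narrower at Smarca2, with 658 bp in replicate 1 and 1097 bp in replicate 2. Smarcb1, a core subunit shared by canonical BAF and PBAF, had 891 and 900 bp, and Brd9 had 852 and 1084 bp. These 3 narrow stretches, at Smarca2, Smarcb1 and Brd9, were shorter in each replicate than those of the other 7 genes. Arid1b had the widest, 2979 bp in replicate 1 and 3248 bp in replicate 2, with its nearest downstream peak 2615 and 2829 bp away and its nearest upstream peak 365 and 420 bp away. The RefSeq promoter table places an Arid1b start 777 bp downstream of the start of the gene record, inside that stretch. From that start, replicated peaks would lie within 2 kb on both sides, so the Arid1b exception depends on the start used.

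**Figure D1:**
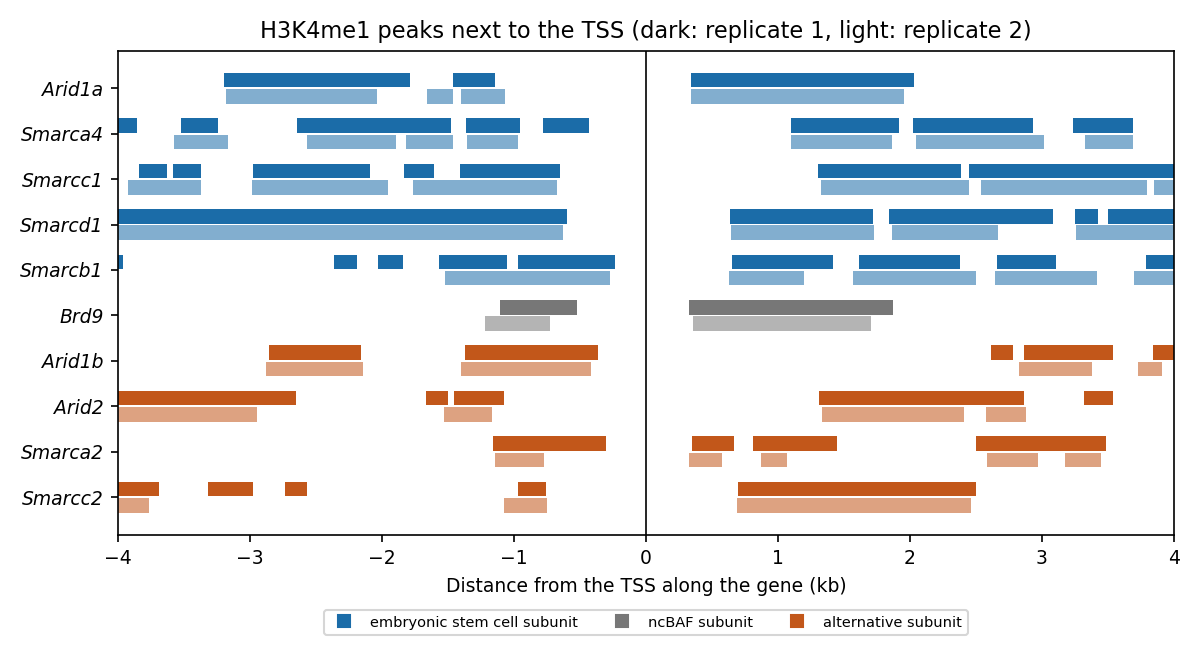
H3K4me1 peaks within 4 kb of the TSS of the 10 genes, with distance from the TSS in kb on the x axis and 1 gene per line, replicate 1 dark and replicate 2 light. Every gene has a peak-free stretch over the TSS, narrowest at Smarca2, Smarcb1 and Brd9 and widest at Arid1b.

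TSS windows of the embryonic stem cell subunits were more widely covered than those of the alternatives as a class. The median over the 5 embryonic stem cell subunits was 50.3% (48.8% in replicate 1 and 48.5% in replicate 2), and over the 4 alternatives 28.0% (27.9% and 28.1%). The class difference was 22.2 percentage points, taken on means of the replicates. Within replicates it was 20.9 points in replicate 1 and 20.4 in replicate 2 (SD 0.30, n = 2). The value of 22.2 lies outside both, so that SD is not a spread around it. The median over all 10 genes was 32.5 ± 2.78% (SD, n = 2). Coverage above the all-gene median, a level that 50% of genes exceed, was found for 5 of 5 embryonic stem cell subunits and 3 of 4 alternatives, and Brd9 was below it. The classes overlapped, since Smarcc1, at a mean of 30.2%, was below the alternatives Arid1b at 33.7% and Arid2 at 31.4%. In replicate 2 alone Smarcc1 was above Arid2, at 33.1% against 31.99%.

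Smarcd1, which encodes BAF60A, a subunit that links the complex to transcription factors, had the most covered TSS window, 64.6% in replicate 1 and 65.8% in replicate 2. Smarcb1 had 52.0% and 48.5%, and Arid1a had 48.8% and 51.8%. Smarca4 followed with 41.9% in replicate 1 and 46.8% in replicate 2. The values of Smarcb1 and Arid1a overlapped between replicates, while Smarcd1 above them and Smarca4 below them did not overlap with either. Smarcc1, a scaffold subunit also called BAF155, had 27.2% and 33.1%.

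Of the alternatives, Arid1b had 30.9% of its TSS window covered in replicate 1 and 36.4% in replicate 2. Arid2 had 30.8% and 31.99%. The replicate values of Arid1b, Arid2 and Smarcc1 overlapped. Arid1b was the highest of them within each replicate, though close to Arid2 in replicate 1. Arid2 and Smarcc1 changed order between replicates. Smarcc2, the scaffold paralogue also called BAF170, had 25.1% and 24.3%, below all of those. Smarca2 had 10.6% and 7.20%, and Brd9, a bromodomain protein that reads acetylated lysine, had 6.68% and 7.07%. Smarca2 and Brd9 were the pair under the all-gene median, at the 41.2 and 36.6 percentiles of all genes, whereas Smarcd1 stood at the 96.9 percentile.

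**Figure D2:**
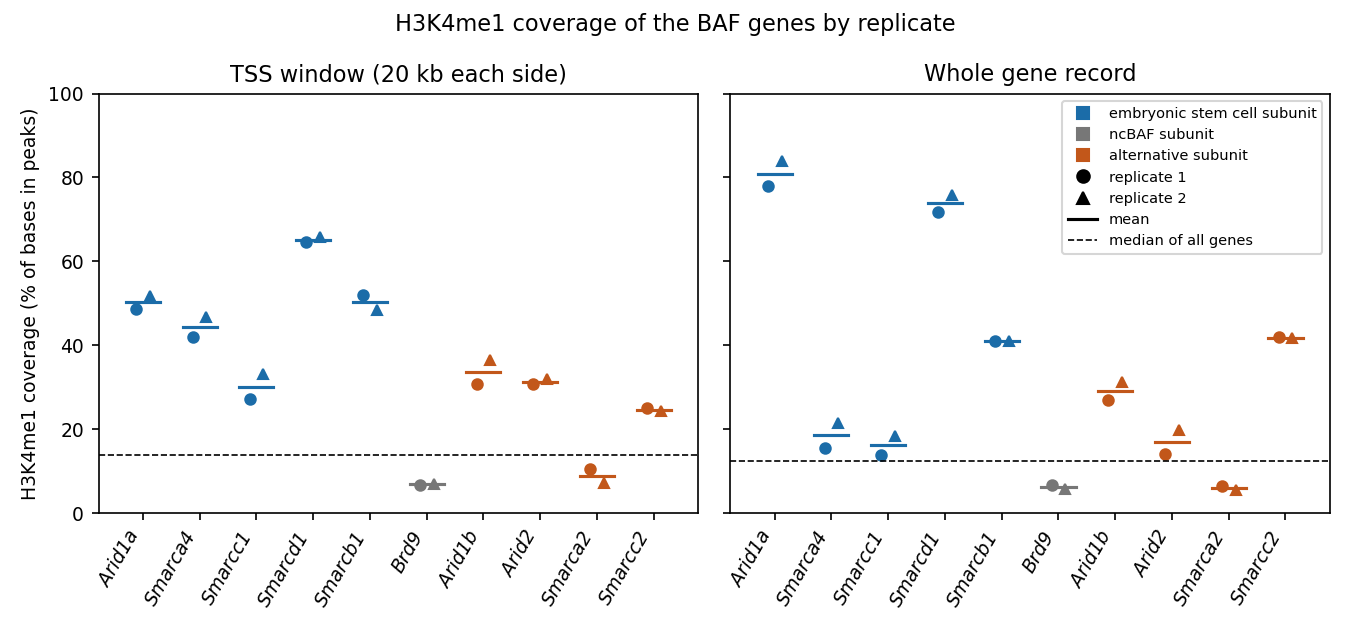
Percent of the TSS window and of the gene record lying in H3K4me1 peaks (y axis, left and right panel) for each gene (x axis), with a circle for replicate 1, a triangle for replicate 2, a line for their mean and a dashed line at the median of all protein-coding genes. Embryonic stem cell subunits are blue, Brd9 grey and alternatives orange, and Smarca2 and Brd9 are the genes below the dashed line in both panels.

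Some windows are shared with neighbouring genes, and how much of the coverage belongs to those genes cannot be told apart in a peak list. At Smarcd1, 58.9% of the window lay in records of other protein-coding genes, with the start of Gpd1 15300 bp downstream. At Smarcb1 the share was 42.1%, and the starts of Mmp11 and Chchd10 lay 10888 and 11516 bp upstream. The start of Dhx30 lay 14408 bp upstream of Smarcc1. Brd9 shares its promoter with Trip13, which starts 6 bp upstream on the opposite strand. Arid1a, Smarca4, Arid1b and Smarca2 had no other protein-coding record in their windows. With bases of other gene records left out, a setting chosen after the data were seen, the class difference was 25.8 percentage points.

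Upstream and downstream sides of the start were unequally covered at several genes. At Arid1a, the 20 kb downstream were 71.8% covered in replicate 1 and 74.7% in replicate 2, whereas the 20 kb upstream were 25.8% and 28.8% covered. Arid1b showed the same direction, with 50.9% and 58.8% downstream and 10.9% and 14.1% upstream. Both ARID1 paralogues therefore carried most of the mark inside the gene. Arid2 was the reverse, with 19.2% and 19.0% downstream and 42.4% and 45.0% upstream, and 49.7% of its window lay in the record of Gm38469. Smarcb1 also had more upstream, at 64.6% and 57.1%, than downstream, at 39.4% and 39.95%.

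**Figure D3:**
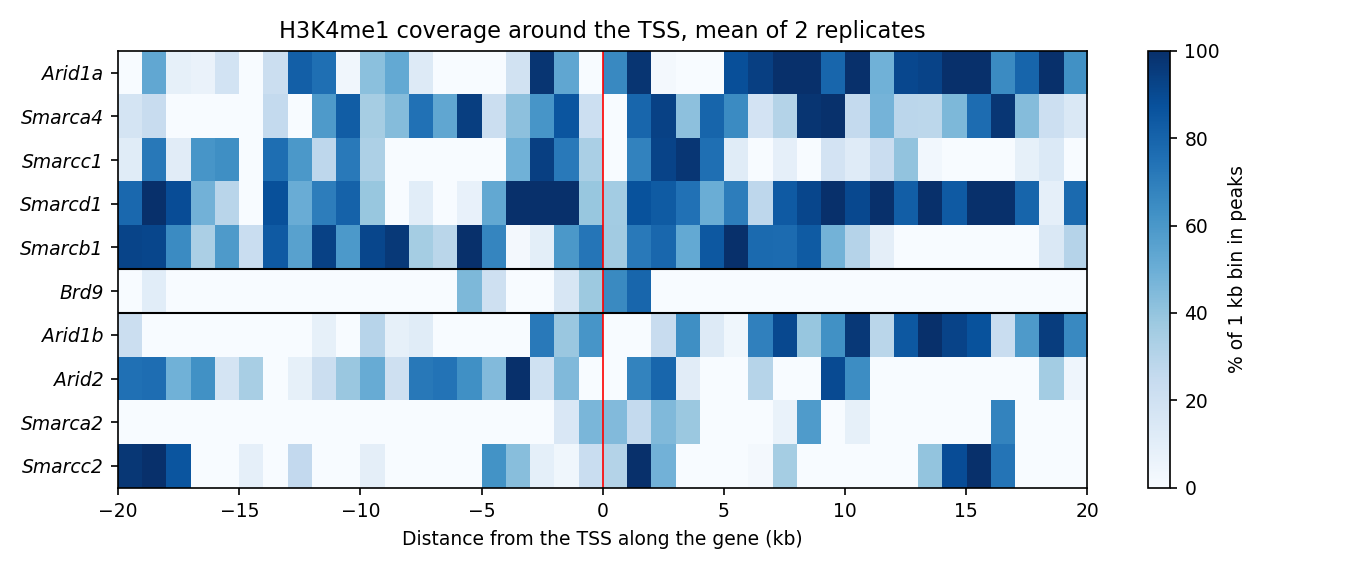
Heat map of the percent of each 1 kb bin lying in H3K4me1 peaks (colour, mean of the replicates) from 20 kb upstream to 20 kb downstream of the TSS (x axis, kb) for the 10 genes (y axis). Coverage at Arid1a and Arid1b lies mostly downstream of the start, and bins at Smarca2 and Brd9 are mostly empty outside the promoter flanks.

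Paralogue by paralogue, the embryonic stem cell form had the wider TSS-window coverage in both replicates for each of the 3 canonical pairs, by very different amounts. Smarca4 exceeded Smarca2 by 31.4 percentage points in replicate 1 and 39.6 in replicate 2, a mean of 35.5 ± 5.80 (SD, n = 2). The difference between the ATPases was the widest of the 3 on the mm10 lists. Arid1a exceeded Arid1b by 17.9 and 15.3 points, and exceeded Arid2 by 17.99 and 19.8 points. Smarcc1 exceeded Smarcc2 by 2.17 and 8.87 points, a mean of 5.52 ± 4.74. That lead lay upstream of the start, where Smarcc1 had 36.7% and Smarcc2 23.4% by the means of the replicates. Downstream they had 23.6% and 25.9%, in an order that changed between replicates. The scaffold difference in replicate 1 was below the SD of 3.09 points seen between replicates over all genes. Genes without a covered base count in that SD, and Smarcc1 itself differed by 5.885 points between replicates. On the authors' mm9 lists the order of the pairs changed by the means of the replicates. Smarca4 had 36.5 ± 0.71% there and Smarca2 14.2 ± 1.77%, whereas Smarcc1 had 58.7 ± 13.7% and Smarcc2 26 ± 5.66%, a wider difference. In replicate 1 alone the ATPase pair kept the wider difference.

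Over whole gene records the order of the classes depended on which genes were counted. The median of the embryonic stem cell subunits was 41.1% and that of the alternatives 23.1%, a difference of 17.97 ± 3.62 percentage points (SD, n = 2). With only the paralogue pairs, Arid1a, Smarca4 and Smarcc1 against Arid1b, Smarca2 and Smarcc2, the difference of medians turned to -10.5 points. Pair by pair, however, Arid1a minus Arid1b was 51.8 ± 1.39 points and Smarca4 minus Smarca2 was 12.6 ± 4.98 points, and only Smarcc1 minus Smarcc2 was negative, at -25.6 ± 3.44 points (SD, n = 2). With Brd9 added to the embryonic stem cell subunits the class difference was 6.72 points. The median over the 10 genes was 23.8 ± 3.60%, beside 12.5% over all genes. Gene length differed between the classes, since Arid1b, Arid2 and Smarca2 are in the longest of 10 length classes, whose median coverage was 5.04%. Placed among genes of similar length, the embryonic stem cell subunits had a median percentile of 82.1 and the alternatives 82.2 over the gene record, so the class difference was not seen on that scale. Over the TSS window the same medians were 90.6 for the embryonic stem cell subunits and 76.0 for the alternatives. Coverage above the all-gene median of the gene record was found for 8 of 10 genes, beside 50% of all genes, with Smarca2 and Brd9 below. At least 50% of the record was covered in both replicates at Arid1a and Smarcd1, 2 of the 10 genes, beside 14.9% of all genes.

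Arid1a was the most covered record, at 77.9% in replicate 1 and 84.0% in replicate 2. Its 77762 bp (chr4:133679008-133756769, minus strand) stood at the 99.4 percentile of genes of similar length, where the median was 10.0%. Smarcd1 followed, with 71.9% and 75.8% of its 11709 bp (chr15:99702287-99713995, plus strand). Genes as short as Smarcd1 had a median of 26.7%, and it stood at their 90.9 percentile. Smarcb1 (chr10:75896769-75921614, minus strand) had 41.1% and 41.0%, the closest pair of replicate values among the 10 genes.

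The long genes Smarca4 and Smarcc1 were less covered than their TSS windows. Smarca4 (chr9:21616106-21704230, plus strand) had 15.5% in replicate 1 and 21.6% in replicate 2, with 52.0% and 60.6% in the 20% of the gene at its start against 5.96% and 14.4% in the 20% at its end. Most of its mark therefore lay near the start, with a separate group of peaks in the middle of the gene. Smarcc1 (chr9:110132024-110240178, plus strand) had 13.98% and 18.5% of its record covered.

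Among the alternatives, Arid1b (chr17:4994297-5347656, plus strand), the longest of the 10 genes at 353360 bp, had 27.1% covered in replicate 1 and 31.2% in replicate 2. Genes of similar length had a median of 5.04%, and Arid1b stood at their 90.7 percentile. Smarcc2 (chr10:128459182-128490591, plus strand) had 42.0% and 41.7%, so that Smarcc1 minus Smarcc2 was -28.0 percentage points in replicate 1 and -23.2 in replicate 2. This is the opposite of their order in the TSS window. Arid2 (chr15:96287522-96405463, plus strand) had 14.2% and 20.0%. Smarca2 (chr19:26605073-26778321, plus strand) had 6.48% and 5.51%, and Brd9 (chr13:73937801-73960895, plus strand) had 6.68% and 5.84%.

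Position within the gene was compared for the scaffold paralogues. In Smarcc1 the strongest peak summit lay 97.3 kb from the TSS in both replicates, late in the gene, with signal values, the authors' own per peak, of 8.18 and 9.60. With each gene split into 10 equal segments, segments 6 to 10 of Smarcc2 were 57.3 ± 0.75% covered and segments 1 to 5 were 26.4 ± 0.29% covered, and segment 10 reached 98.2%. The strongest peak overlapping Smarcc2 had a signal value of 11.4 in replicate 1 and 12.5 in replicate 2, above 99.3% and 99.9% of peaks in those lists. Its summit lay 1.44 kb past the end of the gene in replicate 1 and 0.70 kb past it in replicate 2, in the record of Myl6, 1.86 and 2.60 kb from the Myl6 start. The mark at that end thus lies next to a second gene.

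Arid1a was covered throughout its length, from 54.6 ± 0.59% in segment 1, the lowest by the mean of the replicates, to 97.8 ± 0.52% in segment 4. In replicate 1 alone segment 8 was the lowest, at 47.6%. Arid1b declined along the gene, with 40.5 ± 4.50% over segments 1 to 5 and 17.8 ± 1.32% over segments 6 to 10. Smarcb1 had 60.3 ± 1.18% over segments 1 to 5 and 21.8 ± 1.43% over segments 6 to 10. Brd9 was uncovered in 9 of 10 segments, with segment 1 at 62.6 ± 5.97% and holding its only peak. Smarca2 was thinly covered throughout, with 28 peaks in replicate 1 and 24 in replicate 2, or 1.62 and 1.39 peaks per 10 kb.

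**Figure D4:**
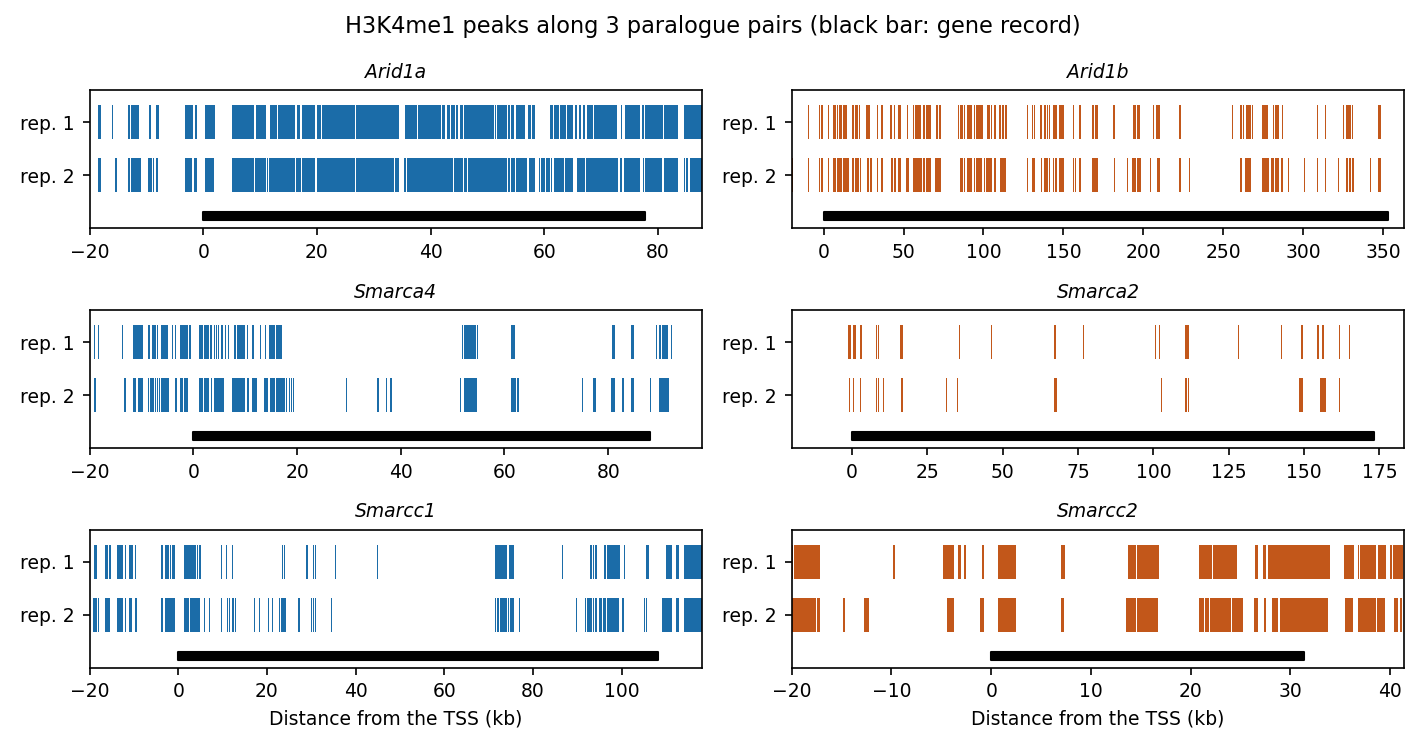
H3K4me1 peaks of each replicate (coloured bars) along the gene record (black bar) and its surroundings for Arid1a and Arid1b, Smarca4 and Smarca2, and Smarcc1 and Smarcc2, with distance from the TSS in kb on an x axis that differs by panel. Peaks fill most of Arid1a, are densest around the start of Smarca4 and towards the end of Smarcc2, and are sparse in Smarca2.

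Joined into domains across gaps of up to 1 kb, replicated peaks formed a domain of at least 10 kb at 4 of the 10 genes, beside 16.7% of all genes. These were Arid1a, Smarcd1 and Smarcb1 among the embryonic stem cell subunits and Arid1b among the alternatives. Among genes of similar length the share with such a domain was 17.6% for Smarcd1 and 23.1% for Arid1a, with Smarcb1 and Arid1b between. Of 19 other BAF, PBAF and ncBAF genes measured, 10 held such a domain. The Arid1a domain spanned 78433 bp (chr4:133673274-133751706) and ranked 9 in width among 110533 domains of the genome. It began 5.06 kb downstream of the TSS, joined 26 peaks, covered 93.5% of the gene record and ran 5.73 kb past the end of the gene. In replicate 1 alone the widest domain at Arid1a was 29266 bp, against 78368 bp in replicate 2 and 78702 bp in the pooled list. The unbroken length was therefore not seen in replicate 1, and it depends on the rule for joining.

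Smarcd1 had a domain of 20280 bp (chr15:99709125-99729404), of which 15409 bp lay past the end of the gene, over the start of Gpd1. The Smarcb1 domain of 12583 bp (chr10:75911084-75923666) covered the first part of the gene and 2.05 kb upstream of it. Arid1b held 3 domains of at least 10 kb among 47, with the widest at 17408 bp. In replicate 1 alone Arid1b held none of that width and Smarca4 held a 16066 bp domain, while in replicate 2 the widest at Smarca4 was 5786 bp. Both replicates therefore gave 4 genes, with Arid1a, Smarcd1 and Smarcb1 in common. When only touching peaks were joined, Arid1a alone kept a domain of 10 kb.

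Other subunit genes of the canonical, PBAF and non-canonical complexes were measured beside the 10. Of 20 listed, 19 had a strand and were measured, Bicral being the one left out. Their median TSS-window coverage was 37.9%, and 16 of 19 lay above the all-gene median. Genes of the NuRD complex, another remodeller of embryonic stem cells, had a median of 42.0% (12 genes). The median of the 10 remodeller genes, 32.5%, was therefore below that of both lists.

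In the TSS window, within the BAF60 family, Smarcd1 exceeded Smarcd2 by 18.5 and 20.7 percentage points in the replicates, and exceeded Smarcd3 by 38.7 and 40.2 points. Smarcd3 encodes BAF60C, known from heart and muscle. Families with a neuronal form did not share this order, with differences given as the first-named gene minus the other. Actl6a, the actin-related BAF53A of proliferating cells, differed from the neuronal form Actl6b by -2.34 and -0.39 points. Ss18, which joins the complex in dividing cells, differed from its neuronal partner Ss18l1 by -5.97 and -5.39 points. The PHD-finger gene Dpf2, broadly expressed, differed from the neuronal Dpf1 by -25.8 and -20.1 points and from Dpf3 by 18.3 and 16.6 points. Phf10, the PBAF member of that family, differed from Dpf1 by -57.5 and -51.0 points and from Dpf3 by -13.3 and -14.3 points. Over the gene record some of these differences changed sign or size. Ss18 minus Ss18l1 was 23.1 and 39.6 points there, Phf10 minus Dpf3 was 9.501 and 10.1 points, and Smarcd1 minus Smarcd2 shrank to 2.62 and 3.35 points.

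The remaining genes ranged widely. The highest were Bcl7b at 64.5 ± 4.997%, Bcl7c at 41.8 ± 1.49% and Bcl11a at 41.8 ± 0.26% (SD, n = 2), and the lowest were Bcl11b at 11.8 ± 3.71% and Brd7, a PBAF bromodomain gene, at 7.52 ± 2.22%. Pbrm1, the polybromo subunit of PBAF, and Bicra, the ncBAF scaffold, were named after their values were seen. Pbrm1 had 14.6 ± 1.15%, less covered than its PBAF partner Arid2 at 31.4 ± 0.84%. Bicra had 37.9 ± 4.33%, more covered than its ncBAF partner Brd9 at 6.88 ± 0.27%.

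**Figure D5:**
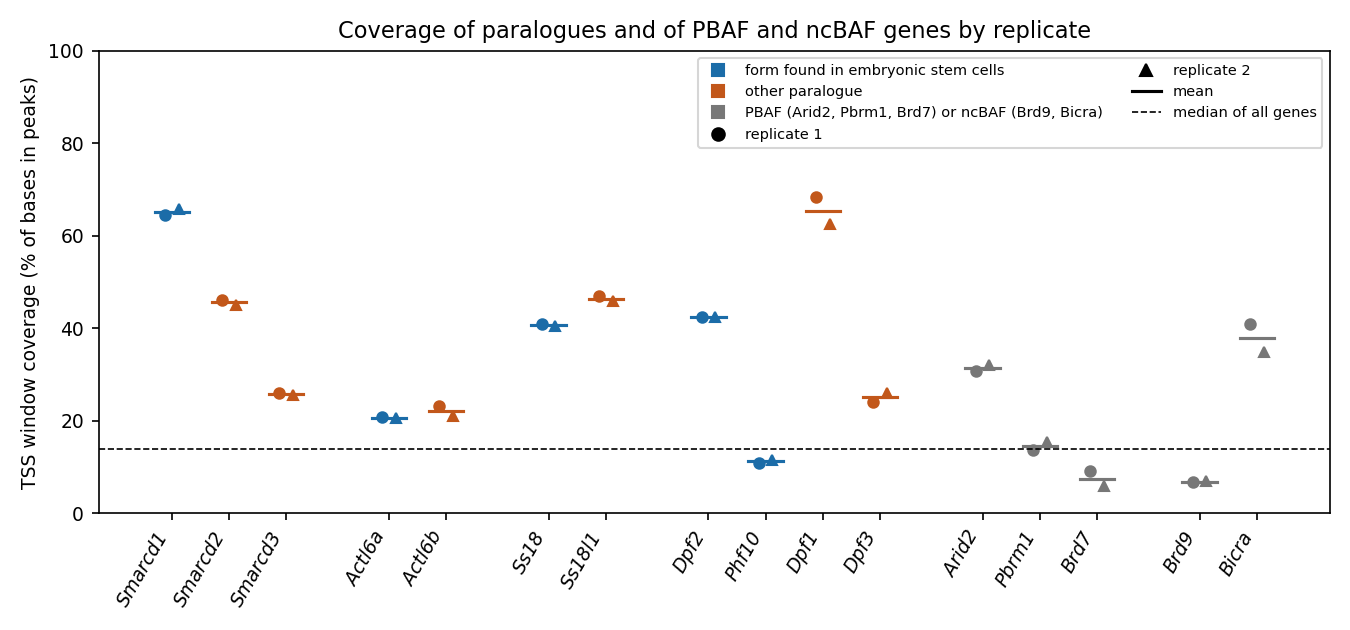
TSS-window H3K4me1 coverage in percent (y axis) for paralogue families and for subunits of PBAF and ncBAF, with a circle for replicate 1, a triangle for replicate 2, a line for their mean and a dashed line at the all-gene median. Smarcd1 stands above Smarcd2 and Smarcd3, whereas Dpf1 stands above Dpf2, Phf10 and Dpf3.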

How the data were processed

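H3K4me1 peak lists from 2 replicates of 1 cell line were used. Per the deposited read-me lists, the authors made narrowPeak files on mm10 (1 per replicate, 1 pooled and 1 of replicated peaks) and broadPeak files on mm9. Which aligner and caller they used is not given in the sources used here. Each deposited mm10 peak has a signal value and a −log10 p and −log10 q, and each deposited mm9 peak a signal value, p-value and q-value. The replicate 2 and pooled mm10 files derive, besides alignments, from 1 source file that the replicate 1 file does not name, with no role stated, and its part in differences between replicates was not tested. Depth is unknown. Every replicated interval was also in the pooled list, so the replicated list is no independent check.

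The 10 genes, their classes and the gene lists were chosen with earlier results of these data known. Of 21900 protein-coding genes in RefSeq GRCm38.p6, which shares mm10 coordinates, 21535 had a strand, from the RefSeq promoter table (17492), from GENCODE vM1 by symbol (3649) or by synonym (394). The TSS is the 5′ end of the gene record, so other starts were not measured. Percentiles by length are within 10 equal classes of genes by length, and their class medians were added after seeing the data. Values were computed per replicate and given as mean and SD, and no p-value was computed. All 10 genes were named, with paralogues of the wider list, and of the rest the 3 highest and 2 lowest. Overlap counted from 1 bp. No coordinate was converted between builds. Alternatives were other windows, lists, thresholds, classes and domain gaps, leaving out each replicate, and, chosen after seeing the data, windows without other gene records and at most the first 20 kb of a record. Interval functions were tested on simulated data. Python 3.11.15, numpy 2.4.6, pandas 2.3.3 and matplotlib 3.10.9 were used.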

Additional observations from a re-analysis of the deposited data

How the results depend on the processing

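The class difference in TSS-window coverage kept its direction in every alternative run. Its values were 23.9 points with 5 kb windows, 17.6 with 50 kb windows, 24.0 with replicated peaks, 23.9 with pooled peaks, 27.2 with the 50000 strongest peaks, 29.0 with mm9 lists, 19.7 with paralogue pairs only, 19.3 with Brd9 added, 23.4 with class means and 25.8 without other gene records, and 20.4 to 20.9 with 1 replicate left out. Over gene records the difference turned to -10.5 with paralogue pairs only. It was 21.8 with replicated peaks, 24.2 with mm9 lists, 6.72 with Brd9 added, 22.6 with class means, 29.2 over the first 20 kb and 15.4 to 20.5 with 1 replicate left out. The median TSS-window coverage of the 10 genes was 38.6% with pooled peaks, 7.56% with the 50000 strongest, 51.8% with mm9 lists and 30.9% to 34.8% with 1 replicate left out. Their median gene-record coverage was 28.6% with pooled peaks, 8.95% with the 50000 strongest, 39.7% with mm9 lists, 32.8% over the first 20 kb and 21.3% to 26.4% with 1 replicate left out. With the 50000 strongest peaks, 6 genes had a promoter peak and 1 a domain of at least 10 kb. The domain count was 7 with mm9 lists, 1 when only touching peaks were joined and 7 with gaps of up to 3 kb, and the cause of these changes was not tested. No paired analysis was possible because there is 1 group. The number of replicates, unknown depth and the calling of peaks limit the precision of every value, and the SD of a pair of replicates is itself uncertain.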

Other observations

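Exons and introns were compared on mm9, where an annotation of exons was used. Exons were more covered than introns in both replicates at 3 genes, Smarca4, Smarcc2 and Brd9, and less covered in both at 5 genes, Arid1a, Smarcc1, Smarcd1, Smarcb1 and Arid1b. Over the 15782 protein-coding genes with an intron and with peaks in both replicates, these shares were 37.9% and 44.8%, so the counts among the 10 genes are near those of genes at large. The scaffold paralogues stood on opposite sides, since exons of Smarcc1 were 21.0 ± 10.5% covered and its introns 37.5 ± 11.4% (SD, n = 2), while exons of Smarcc2 were 79.1% covered in both replicates and its introns 49.99 ± 1.64%. The mm9 intervals are whole multiples of 200 bp, so short exons are not resolved from their surroundings. Arid1a exons were 84.8% covered in both replicates and its introns 96.0 ± 1.45%. On these lists the TSS windows of Smarca2 and Brd9 were again the least covered of the 10, at 14.2 ± 1.77% and 12.2 ± 2.47%, beside a median of 23.0% over 22238 genes. The order of other genes changed. Smarca4, at 36.5 ± 0.71%, was below the alternatives Arid1b at 51.6 ± 6.01% and Arid2 at 52.1 ± 6.28%. Smarcc1, at 58.7 ± 13.7%, was above both, whereas on mm10 Smarca4 was above them and Smarcc1 below them by the means.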
